A study of Mus musculus with 19 samples.

Results

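This account follows 10 genes of the NF-kB system through 19 libraries of cultured mouse microglia. The genes were taken by symbol from tables of 16941 genes. They are the subunit genes Nfkb1, Nfkb2, Rel, Rela and Relb, the inhibitor genes Nfkbia and Nfkbie, the nuclear regulators Nfkbiz and Bcl3, and Tnfaip3. All 10 were present in the tables, and all 10 passed the filter on low counts, which left 14113 genes for testing. The cells were adult microglia, the macrophages that live in the brain, taken from cortices of C57BL/6 animals 10 to 11 months old. Before treatment they were cultured for 4 weeks in 10% serum with macrophage colony-stimulating factor at 5 ng/mL.

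The APP LPS group (5 libraries) came from mice of the hAPPJ20 line, which carry a human amyloid precursor protein transgene with the Sw and Ind mutations under a PDGF promoter. Its cells were exposed for 6 h to LPS at 100 ng/mL, a lipopolysaccharide from the bacterial surface that Toll-like receptor 4 senses, and then kept for 16 h without it. The APP vehicle group (5 libraries) came from the same line and received medium alone on the same schedule. The WT LPS group (5 libraries) and the WT vehicle group (4 libraries) were wild-type cells treated in the same ways. The transgene promoter is known mainly for expression in neurons, and expression of the transgene in these cultured cells was not examined. RNA was read near the 3′ ends of transcripts, so longer transcripts do not gain reads. A level is given in CPM, the count scaled to a common library total after TMM adjustment (trimmed mean of M values).

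NF-kB proteins are transcription factors that work as pairs of subunits. In resting cells inhibitor proteins of the IkB family hold most of them in the cytoplasm. Toll-like receptor signalling makes the IKK kinases mark the inhibitors for destruction, the subunits enter the nucleus, and among the genes they switch on are their own inhibitors, which close a negative feedback loop. In macrophages and microglia this system drives much of the transcriptional response to LPS.

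Library totals were 13065257 to 23165305 counts in APP LPS, 18990298 to 25502823 in APP vehicle, 15270080 to 25610461 in WT LPS and 17712123 to 31248988 in WT vehicle. The 15 macrophage and microglia markers found in the tables, of a list of 16, summed to 940 to 5996 CPM in APP LPS, 1520 to 6990 CPM in APP vehicle, 1606 to 6434 CPM in WT LPS and 2112 to 7441 CPM in WT vehicle. The lowest sum of each group was that of the library numbered 57, 58, 59 or 60 in its label, and the other 15 libraries ranged from 3326 to 7441 CPM. Csf1r and C1qc, genes of macrophages in general, were present in every library (52.2 to 343 CPM and 89.9 to 1194 CPM). The microglial markers P2ry12, Tmem119 and Sall1 stood at medians of 2.61, 5.52 and 4.88 CPM over the 19 libraries and at 0 in 6, 3 and 2 of them. Markers of fibroblasts, pericytes and smooth muscle (12 genes) summed to 1245 to 5586 CPM in APP LPS, 1255 to 4784 CPM in APP vehicle, 1774 to 3409 CPM in WT LPS and 1708 to 3031 CPM in WT vehicle. Because these are bulk cultures, fewer cells of a type and less RNA per cell cannot be told apart. Whether each library is a separate animal or culture is not stated in the labels. P-values therefore measure the spread between libraries, which may be technical.

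Promoters are shown first, because several NF-kB genes are themselves NF-kB targets. RefSeq promoter windows, from 250 bases before to 50 bases after an annotated start on GRCm38.p6, were found for 7 of the 10 genes and none was used for Nfkb1, Relb or Nfkbiz. The sequences run 5′ to 3′ on the strand of the gene. Capitals mark matches on either strand to the 10-base kB consensus, the degenerate motif that NF-kB dimers bind, with overlapping matches counted by position. Nfkbia (chr12:55492598-55492897, minus strand), Nfkb2 (chr19:46304487-46304786, plus strand) and Tnfaip3 (chr10:19015361-19015660, minus strand) are shown because their mean levels were higher after LPS. Rela (chr19:5637291-5637590, plus strand) is shown for comparison, because its group means with LPS and with vehicle differed by less than their spread.
Nfkbia: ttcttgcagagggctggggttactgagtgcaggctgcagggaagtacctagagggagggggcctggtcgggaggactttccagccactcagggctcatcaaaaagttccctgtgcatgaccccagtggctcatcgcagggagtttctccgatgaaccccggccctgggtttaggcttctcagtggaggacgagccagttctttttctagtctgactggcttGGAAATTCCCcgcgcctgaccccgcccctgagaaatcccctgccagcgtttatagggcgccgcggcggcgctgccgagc
Nfkb2: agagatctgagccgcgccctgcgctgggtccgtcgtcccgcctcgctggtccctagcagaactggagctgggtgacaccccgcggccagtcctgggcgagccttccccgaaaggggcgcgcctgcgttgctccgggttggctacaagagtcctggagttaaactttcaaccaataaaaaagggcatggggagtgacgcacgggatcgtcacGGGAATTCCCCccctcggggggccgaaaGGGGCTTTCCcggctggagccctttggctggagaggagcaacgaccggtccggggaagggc
Tnfaip3: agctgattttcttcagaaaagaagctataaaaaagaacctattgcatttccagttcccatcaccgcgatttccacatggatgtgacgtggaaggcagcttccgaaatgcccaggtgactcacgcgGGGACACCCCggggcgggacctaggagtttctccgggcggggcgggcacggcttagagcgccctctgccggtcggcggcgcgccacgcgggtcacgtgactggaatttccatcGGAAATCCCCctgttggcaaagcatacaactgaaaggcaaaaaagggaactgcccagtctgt
Rela: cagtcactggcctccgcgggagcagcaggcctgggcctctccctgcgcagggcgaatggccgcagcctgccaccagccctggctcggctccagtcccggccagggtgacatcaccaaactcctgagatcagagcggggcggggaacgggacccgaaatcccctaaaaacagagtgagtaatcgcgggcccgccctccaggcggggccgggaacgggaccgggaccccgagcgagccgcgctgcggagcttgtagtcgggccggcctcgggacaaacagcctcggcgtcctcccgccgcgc

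The Nfkbia window held 1 match, which begins at position -29 relative to the start. The Nfkb2 window held 3, beginning at -39, -38 and -11, of which the first pair overlap. The Tnfaip3 window held 2, at -125 and -12, and the Rela window held 0 matches, which says only that these letters are not in it. Further annotated starts of Nfkb2 had windows with 2 matches and 1 match, and a further start of Tnfaip3 had 0. Windows of Rel, Nfkbie and Bcl3 also held a match, although the mean LPS differences of Nfkbie and Bcl3, like that of Rela, lay within their standard errors. Nfkbiz, whose mean difference was the largest of the 10 genes, had no window to compare. Of all 32851 promoter windows in the table, 8.46% held at least 1 match, 1.22% at least 2 and 0.186% at least 3. A match describes the letters and is not a measured binding site.

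The first question was how these transcripts stood after LPS and the 16 h recovery. Levels of the inhibitor Nfkbia and the nuclear regulator Nfkbiz were close to double those of vehicle in each genotype, and those of Nfkb2 and Tnfaip3 were higher by a little less. The mean log2 differences of the subunit genes Rela and Relb lay close to 0 with wide intervals, and Relb differed more between libraries of a group than between groups. In the comparison of groups across all genes, edgeR's quasi-likelihood test called 0 of the 10 genes in either genotype at an adjusted p under 0.05. DESeq2 and limma's voom test also called 0 of the 10 in either genotype. Of all genes DESeq2 called 76 in APP and 89 in WT, and voom called 9 and 3. At an unadjusted p under 0.05 edgeR found 3 of 10 in APP, where 4.71% of the 14113 genes tested passed and 0% were called, and 3 of 10 in WT, where 3.56% passed and 0% were called. With library pairs as a block, edgeR put Nfkbia and Nfkbiz past the adjusted threshold in APP, as given below with the pairs. With that block over all 19 libraries, edgeR also called Nfkbia in WT (1.09 ± 0.15, log2, SE, adjusted p = 0.00281), where 19 of all genes were called. Nfkbiz was not called in WT there (adjusted p = 0.119), and not all WT pairs met the check used for pairing. Not every fit that kept the APP pairs together called Nfkbia and Nfkbiz in APP. The adjusted p of Nfkbia and Nfkbiz was 0.141 and 0.453 with replicate numbers as a block in edgeR. It was 0.138 and 0.104 by limma's voom test with library pairs as a random effect.

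Nfkbia encodes IkB-alpha, the inhibitor that is destroyed early once the pathway is switched on. Its level was 631, 728, 1127, 1437 and 954 CPM in APP LPS replicates 1 to 5, and 287, 302, 504, 846 and 768 CPM in APP vehicle replicates 1 to 5. In WT LPS replicates 1 to 5 it was 653, 946, 1105, 966 and 1395 CPM, and in WT vehicle replicates 1 to 4 it was 345, 440, 570 and 784 CPM. The ranges of LPS and vehicle libraries overlapped in each genotype, and in APP the lowest 2 LPS libraries lay below the highest 2 vehicle libraries. Group means were 976 ± 323 CPM in APP LPS, 541 ± 259 in APP vehicle, 1013 ± 269 in WT LPS and 535 ± 190 in WT vehicle (SD, n = 5, 5, 5 and 4). The LPS groups stood above the vehicle groups, while the 2 LPS groups, like the 2 vehicle groups, differed by less than their spread. The log2 difference between LPS and vehicle was 0.85 ± 0.31 in APP (SE, adjusted p = 0.992) and 0.92 ± 0.33 in WT (adjusted p = 1) by edgeR's quasi-likelihood test.

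Nfkbie encodes IkB-epsilon, an inhibitor of the same family, and held 70 to 355 counts in all but 3 libraries, which held 0, 2 and 0. It was at 0, 9.89, 0.121, 12.1 and 9.38 CPM in APP LPS replicates 1 to 5, and at 8.13, 16.9, 3.50, 5.27 and 5.94 CPM in APP vehicle. In WT LPS it was at 15.9, 6.68, 9.99, 8.98 and 8.46 CPM, and in WT vehicle replicates 1 to 4 at 0, 6.38, 4.53 and 5.57 CPM. The WT groups did not overlap, all LPS libraries standing above all vehicle libraries, while the APP groups did. The WT gap was narrow, 6.68 CPM in WT LPS replicate 2 against 6.38 CPM in WT vehicle replicate 2. These were 163 counts of 25610461 and 138 of 21555691, so scaling by library totals alone reverses their order. Across all genes 0.723% were separated in this way in WT, and the log2 difference of 1.28 ± 1.26 (SE) had an adjusted p of 1 by edgeR. In APP the log2 difference was -0.33 ± 1.15 (adjusted p = 1). APP LPS replicate 1 and WT vehicle replicate 1 had 0 counts, where a floor of 3 counts corresponds to 0.123 and 0.0963 CPM.

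Nfkbiz encodes IkB-zeta, a nuclear protein of the IkB family that is itself induced by LPS and is needed for a set of secondary response genes. It stood at 139, 96.6, 233, 112 and 102 CPM in APP LPS replicates 1 to 5, and at 42.9, 35.2, 89.5, 72.3 and 84.3 CPM in APP vehicle. Every APP LPS library was above every APP vehicle library, a separation upward found in 0.255% of the genes tested, and Nfkbiz alone among the 10 genes showed it in APP. In WT LPS the values were 111, 163, 77.0, 103 and 153 CPM, and in WT vehicle replicates 1 to 4 they were 54.2, 38.3, 83.3 and 68.0 CPM. WT LPS replicate 3 lay below WT vehicle replicate 3, so the WT groups overlapped. Group means were 137 ± 56.5 CPM in APP LPS, 64.9 ± 24.5 in APP vehicle, 121 ± 35.6 in WT LPS and 61.0 ± 19.2 in WT vehicle (SD). The log2 differences were 1.07 ± 0.30 in APP (SE, adjusted p = 0.992) and 0.99 ± 0.32 in WT (adjusted p = 1) by edgeR.

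Bcl3, a nuclear IkB-like protein that binds p50 and p52 dimers, ranged from 0 to 15.8 CPM over all libraries. Its group means were 5.61 ± 6.19 CPM in APP LPS, 3.54 ± 2.78 in APP vehicle, 5.46 ± 3.96 in WT LPS and 4.13 ± 1.60 in WT vehicle (SD). The ranges of all 4 groups overlapped, with 0 counts in APP LPS replicate 1, APP vehicle replicate 3 and WT LPS replicate 4. Its log2 differences, 0.66 ± 1.36 in APP and 0.40 ± 1.45 in WT (SE, adjusted p = 1 for each by edgeR), lay well within their errors.

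Tnfaip3 encodes A20, an enzyme that edits ubiquitin chains on signalling proteins above IKK and so dampens the pathway. It was at 31.2, 52.6, 78.6, 39.8 and 95.9 CPM in APP LPS replicates 1 to 5, and at 25.3, 33.4, 15.5, 45.6 and 61.2 CPM in APP vehicle. In WT LPS it was at 63.4, 68.3, 71.7, 53.6 and 65.7 CPM, and in WT vehicle replicates 1 to 4 at 30.8, 21.8, 35.5 and 56.4 CPM. The WT LPS libraries lay close together, and only WT LPS replicate 4 lay below the highest WT vehicle library, whereas the APP groups overlapped widely. Its log2 differences were 0.72 ± 0.34 in APP and 0.84 ± 0.37 in WT (SE, adjusted p = 1 for each by edgeR).

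**Figure D1:**
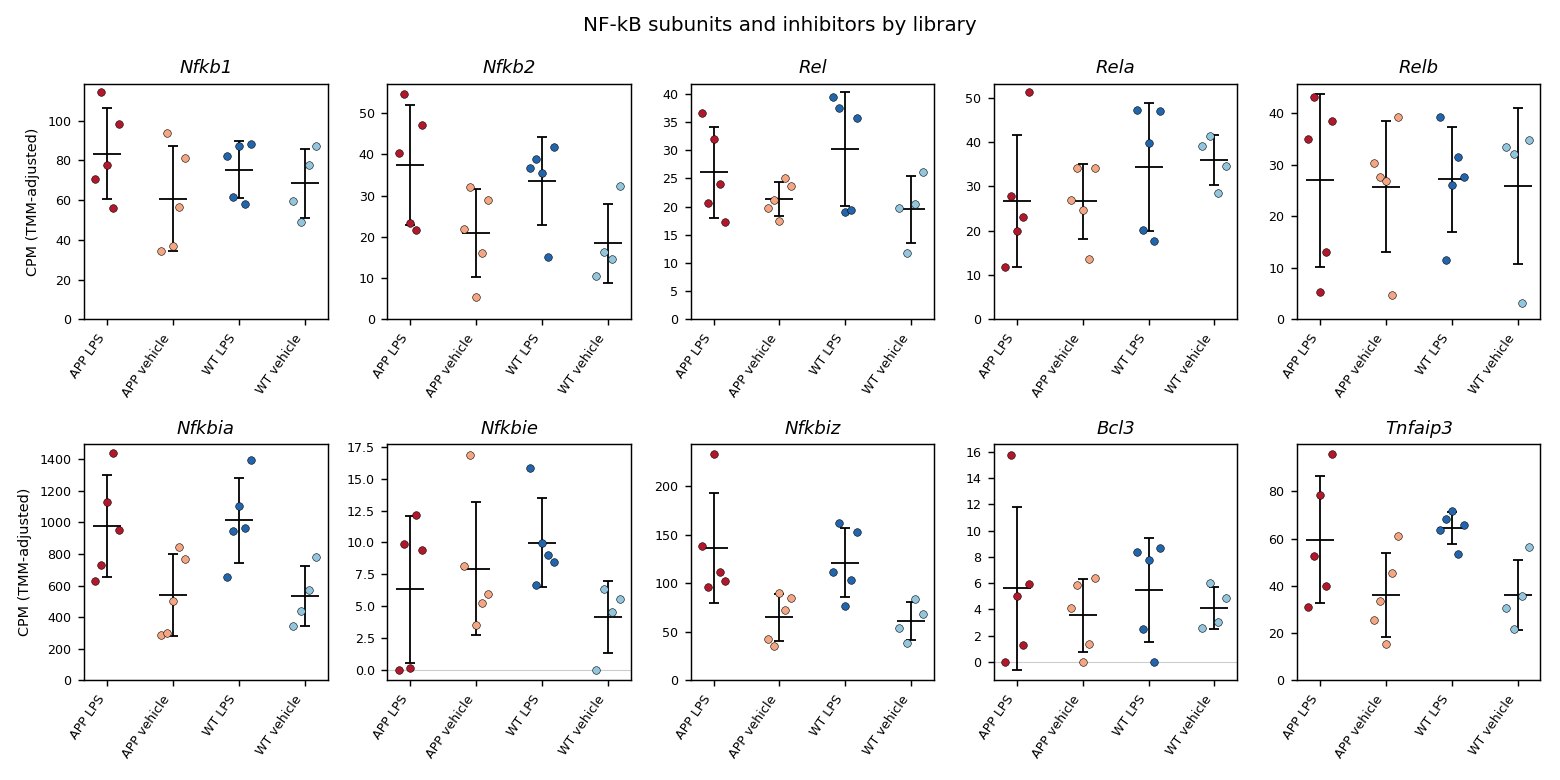
The plot of level by library shows each gene's CPM (vertical axis, linear, TMM-adjusted) for the APP LPS, APP vehicle, WT LPS and WT vehicle groups, with points for libraries, a line at the mean and bars of 1 SD. Nfkbia, Nfkbiz, Nfkb2 and Tnfaip3 have higher means with LPS in each genotype (Nfkbia 976 against 541 CPM in APP and 1013 against 535 CPM in WT), while Rela and Relb do not separate.

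Among the subunit genes, Nfkb2, which encodes p100, the precursor of p52 and itself an inhibitor of RelB, had the largest differences. It stood at 40.2, 54.7, 23.4, 21.8 and 47.0 CPM in APP LPS replicates 1 to 5, and at 22.0, 32, 5.51, 16.0 and 28.9 CPM in APP vehicle. In WT LPS it was at 36.7, 38.9, 35.6, 15.1 and 41.7 CPM, and in WT vehicle replicates 1 to 4 at 10.6, 16.4, 14.7 and 32.2 CPM. A single low library, WT LPS replicate 4, lay within the WT vehicle range. The other 4 WT LPS libraries stood above all WT vehicle libraries. The log2 differences were 0.84 ± 0.42 in APP and 0.87 ± 0.45 in WT (SE, adjusted p = 1 for each by edgeR). Psd lies on the opposite strand over Nfkb2 and is also in the tables, and whether counting used the strand is not given in the sources used here.

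Nfkb1 encodes p105, the precursor of p50, the usual partner of RelA. Its group means were 83.4 ± 23.1 CPM in APP LPS, 60.7 ± 26.3 in APP vehicle, 75.3 ± 14.4 in WT LPS and 68.4 ± 17.2 in WT vehicle (SD), with single libraries between 34.5 and 115 CPM. Its log2 differences of 0.46 ± 0.28 in APP and 0.14 ± 0.30 in WT (SE) did not pass the test. Rel, the c-Rel subunit of lymphoid and myeloid cells, averaged 26.1 ± 8.00 CPM in APP LPS, 21.4 ± 3.03 in APP vehicle, 30.2 ± 10.1 in WT LPS and 19.5 ± 5.91 in WT vehicle (SD). The log2 differences of Rel were 0.28 ± 0.32 in APP and 0.63 ± 0.34 in WT (SE), neither past the threshold.

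Rela encodes p65, the main activating subunit of the canonical pathway. It averaged 26.7 ± 14.9 CPM in APP LPS, 26.7 ± 8.46 in APP vehicle, 34.3 ± 14.4 in WT LPS and 35.9 ± 5.63 in WT vehicle (SD). Relb, the activating subunit of the alternative pathway, averaged 27.0 ± 16.8 CPM in APP LPS, 25.8 ± 12.7 in APP vehicle, 27.2 ± 10.2 in WT LPS and 26 ± 15.2 in WT vehicle (SD). For neither gene did the means differ between LPS and vehicle by more than the spread of the libraries. The log2 difference of Rela was 0.00 ± 0.37 in APP and -0.06 ± 0.39 in WT, and that of Relb was 0.07 ± 0.59 in APP and 0.07 ± 0.63 in WT (SE). The 95% intervals, from -0.76 to 0.77 for Rela in APP and from -1.16 to 1.29 for Relb in APP, leave room for differences of that size. Relb was below 6 CPM in APP LPS replicate 3, APP vehicle replicate 4 and WT vehicle replicate 3 and between 11.5 and 43.2 CPM elsewhere.

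Averaged over both genotypes, the LPS difference ranked Nfkbiz 12 and Nfkbia 27 by p among the 14113 genes. The mean log2 difference was 1.03 ± 0.22 for Nfkbiz (SE, adjusted p = 0.115), 0.89 ± 0.22 for Nfkbia (adjusted p = 0.349), 0.85 ± 0.31 for Nfkb2 (adjusted p = 0.664) and 0.78 ± 0.25 for Tnfaip3 (adjusted p = 0.568) by edgeR's quasi-likelihood test. The edgeR test called 0 of the 10 genes, beside 0.0142% of all genes, and 4 of 10 had an unadjusted p under 0.05, beside 6.01% of all genes. DESeq2 called Nfkbiz (adjusted p = 0.00254) and Nfkbia (adjusted p = 0.0136) in the same contrast. Both were also called by limma's voom test with library pairs as a random effect (adjusted p = 0.00725 for each). These were 2 of the 10 genes in each fit, where DESeq2 called 178 of all genes and voom 68. Differences above 0 were found for 9 of the 10 genes, beside 47.9% of all genes, with a median of 0.50 against -0.02 for all genes tested. In APP alone 9 of 10 were above 0 (median 0.56; 8 of 10 when scaled by library totals, where Rela was below 0), beside 46.9% of all genes (median -0.03), and in WT alone 9 of 10 (median 0.73), beside 49.2% (median -0.01). The remaining genes had mean log2 differences of 0.46 ± 0.23 (Rel), 0.30 ± 0.20 (Nfkb1), 0.53 ± 0.99 (Bcl3), 0.47 ± 0.84 (Nfkbie), 0.07 ± 0.43 (Relb) and -0.03 ± 0.27 (Rela), none of them called.

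The labels number the libraries, and 18 of them form 9 pairs of consecutive numbers in which an LPS library follows a vehicle library of the same genotype. In APP, where these pairs are also those of the replicate numbers, partners deviated together from their group means, with correlations of 0.130 to 0.352 over the 14113 genes. The APP vehicle library numbered 3 correlated slightly more with another LPS library (0.140) than with its partner (0.130), and in each of the other 8 pairs the partner came first. Within pairs, Nfkbia, Nfkbiz and Nfkb2 were higher in the LPS library in 9 of 9, which 0.935% of all genes were. Tnfaip3 was higher in 8 of 9, a level of agreement reached or exceeded by 3.67% of all genes, and its exception was the APP pair numbered 51 and 52. Counts for the other genes were 7 of 9 for Nfkb1, 6 for Nfkbie, 5 for Rel, 4 each for Relb and Bcl3, and 3 for Rela. Scaling by library totals alone left these counts as they were except for Nfkb1, which was then higher in 6 of 9.

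The Nfkbia ratio of LPS to vehicle was 2.20, 2.41, 2.23, 1.70 and 1.24 in the APP pairs numbered 3 and 4, 7 and 8, 11 and 12, 51 and 52, and 59 and 60. It was 2.74, 2.51, 1.69 and 1.78 in the WT pairs numbered 9 and 10, 21 and 22, 41 and 42, and 57 and 58. For Nfkbiz the ratios in the same order were 3.23, 2.74, 2.61, 1.55 and 1.21 in APP and 3.00, 2.01, 1.24 and 2.24 in WT. The ratio was lowest for both genes in the APP pair numbered 59 and 60 among APP pairs, and for both in the WT pair numbered 41 and 42 among WT pairs. For Nfkb2 they were 1.83, 1.71, 4.24, 1.36 and 1.63 in APP and 3.68, 2.18, 1.03 and 1.29 in WT. Nfkbie was higher with LPS in 2 of 5 APP pairs and in 4 of 4 WT pairs, and the difference between the genotypes is given with the interaction. The APP pairs below 0 were 3 and 4 and 11 and 12, with 0 and 2 counts in their LPS libraries, and 7 and 8, with 9.89 CPM with LPS against 16.9 CPM with vehicle. In the WT pair numbered 9 and 10 the vehicle library held 0 counts.

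**Figure D2:**
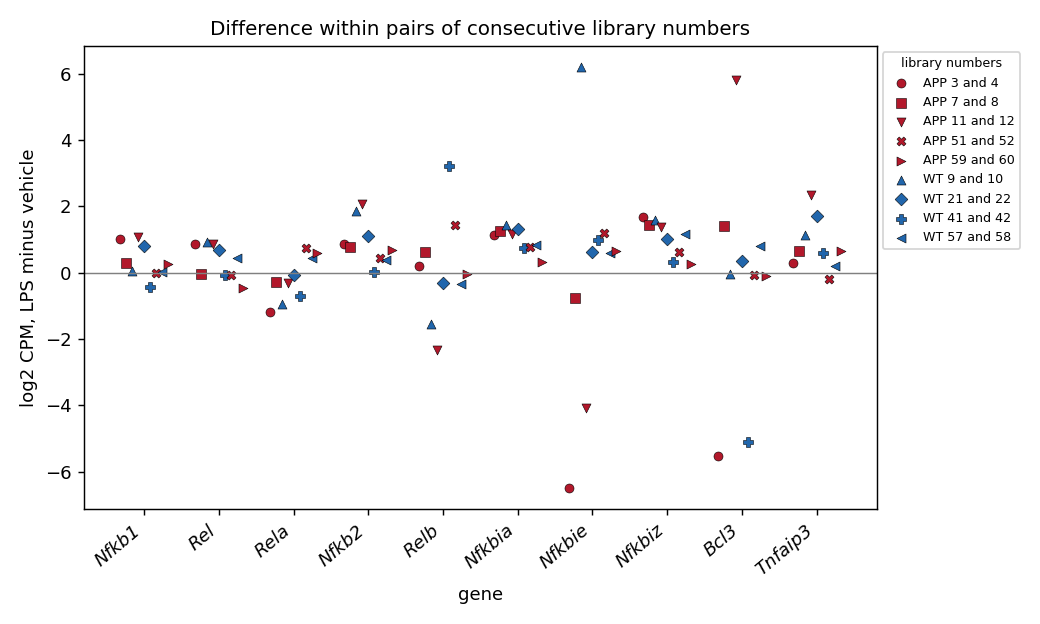
The plot of differences within pairs gives, for each gene on the horizontal axis, the log2 CPM of the LPS library minus that of the vehicle library in 5 APP pairs (red) and 4 WT pairs (blue), with a symbol for each pair of library numbers. All 9 points lie above 0 for Nfkbia (0.31 to 1.45), Nfkbiz (0.28 to 1.69) and Nfkb2 (0.04 to 2.07), while those of Nfkbie, Bcl3 and Relb scatter to both sides.

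With the pair as a block in a fit of the 10 APP libraries, Nfkbia rose by 0.93 ± 0.13 (log2, SE, adjusted p = 0.00551) and Nfkbiz by 1.09 ± 0.21 (adjusted p = 0.0389) after LPS in edgeR's quasi-likelihood test. These were 2 of the 10 genes, beside 0.142% of all genes called higher in that fit. Nfkb2 (0.96 ± 0.32, adjusted p = 0.435), Tnfaip3 (0.73 ± 0.32, adjusted p = 0.698) and Nfkb1 (0.53 ± 0.21, adjusted p = 0.598) did not pass. The calls depended on the pairs used: leaving out the pair numbered 3 and 4, 7 and 8, or 11 and 12 put Nfkbia at adjusted p = 0.0509, 0.111 and 0.0857, and leaving out 51 and 52 or 59 and 60 kept it at 0.0236 and 7.89e-04. Nfkbiz kept an adjusted p under 0.05 only without the pair numbered 59 and 60 (0.0108), and otherwise ranged from 0.0801 to 0.311, with log2 differences of 0.94 to 1.29 over the 5 fits. That of Tnfaip3 was 0.35 ± 0.25 without the pair numbered 11 and 12 and 0.73 to 0.97 in the other 4 fits.

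Some cell type markers moved with treatment. The summed level of macrophage and microglia markers was lower in the LPS library than in the vehicle library of every pair, for example 3326 against 4503 CPM in the APP pair numbered 3 and 4 and 6434 against 7441 CPM in the WT pair numbered 9 and 10. The 4 monocyte and neutrophil markers found in the tables, of a list of 6, summed to 56.7 to 238 CPM in APP LPS, 17.7 to 117 in APP vehicle, 59.8 to 235 in WT LPS and 24.5 to 102 in WT vehicle. Their sum was higher in the LPS library of all 9 pairs, for example 187 against 53.2 CPM in the APP pair numbered 11 and 12 and 181 against 24.5 CPM in the WT pair numbered 21 and 22. Most of that sum was S100a8, with Ly6c2 at 0 in 17 and Mpo at 0 in 13 of the 19 libraries. The part of these markers in the differences was not tested. Macrophage markers were lowest in the libraries numbered 57 to 60. Without these libraries the mean log2 difference after LPS was 1.02 for Nfkbia, 1.11 for Nfkbiz, 1.04 for Nfkb2 and 0.94 for Tnfaip3. None of these genes was called in that fit (adjusted p = 0.163, 0.0976, 0.383 and 0.223 by edgeR). The remaining pairs also had lower macrophage marker sums with LPS.

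The level of Nfkbia was higher at higher library numbers, a pattern noticed in these values and given as a description. In vehicle libraries it was 287, 302, 504, 846 and 768 CPM at the APP numbers 3, 7, 11, 51 and 59, and 345, 440, 570 and 784 CPM at the WT numbers 9, 21, 41 and 57. With the number as a linear term beside the 4 groups, the fitted slope of Nfkbia was 0.18 ± 0.03 log2 for each 10 library numbers (SE), and 0.22 ± 0.04 without the libraries numbered 57 to 60. The slopes of the other 9 genes lay between -0.03 and 0.13 with all libraries. Without the libraries numbered 57 to 60 they lay between -0.43 ± 0.44 (Bcl3) and 0.16 ± 0.33 (Nfkbie), with Relb at -0.35 ± 0.15 (SE). Of all 14113 genes tested, 830 were called for the number by edgeR, and 83 without those libraries, Nfkbia among them each time. What the number records is not given in the sources used here. With the number in the fit, the LPS difference of Nfkbia averaged over genotypes was 0.99 ± 0.14 and was called (adjusted p = 0.00350 by edgeR), against 0.89 ± 0.22 (adjusted p = 0.349) without it. The term was added after the data were seen, so this call is not independent of the pattern. In the same fit Nfkbiz (adjusted p = 0.0562), Tnfaip3 (0.193) and Nfkb2 (0.421) were not called by edgeR.

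**Figure D3:**
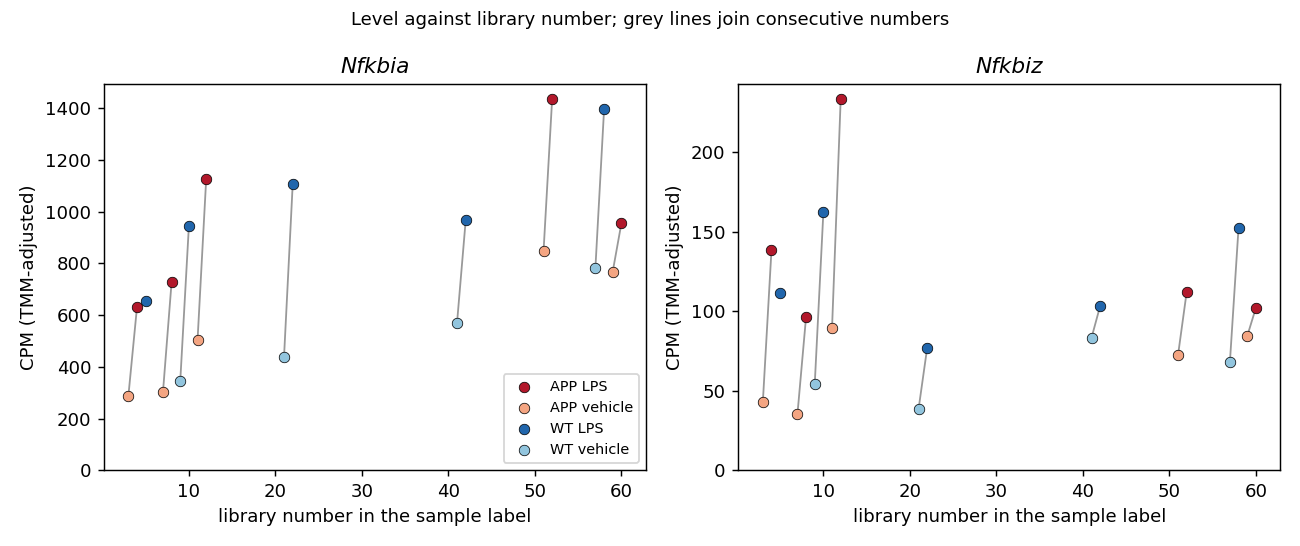
The plot of level against library number shows the CPM of Nfkbia and Nfkbiz (vertical axes, linear) at each library's label number (horizontal axis), coloured by APP LPS, APP vehicle, WT LPS and WT vehicle, with grey lines joining consecutive numbers. Nfkbia vehicle libraries lie at 287 to 504 CPM below number 22 and at 570 to 846 CPM above number 40, and every line climbs to its LPS library.

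The second question was whether the genotype changed these levels. No difference between genotypes passed a test: edgeR, DESeq2 and limma's voom test called 0 of the 10 genes in APP against WT with vehicle, after LPS or averaged over both treatments, and 0 had an unadjusted p under 0.05 in edgeR. Of all genes 2.74%, 3.29% and 3.34% had an unadjusted p under 0.05 in these comparisons, and 0% were called by edgeR. DESeq2 called 64, 69 and 107 of all genes in the same comparisons, and voom called 0 in each. Averaged over treatments, the log2 difference of APP against WT was -0.02 ± 0.22 for Nfkbia, 0.13 ± 0.22 for Nfkbiz, -0.06 ± 0.25 for Tnfaip3 and 0.17 ± 0.30 for Nfkb2 (SE, adjusted p = 1.00 for each by edgeR). The 95% intervals were -0.48 to 0.44 for Nfkbia and -0.32 to 0.58 for Nfkbiz, which leave room for differences of up to that size. The difference farthest from 0 among these, and with the smallest p of the 10 genes, was that of Rela, at -0.39 ± 0.27 (unadjusted p = 0.156), with 26.7 ± 14.9 CPM in APP LPS and 26.7 ± 8.46 in APP vehicle against 34.3 ± 14.4 in WT LPS and 35.9 ± 5.63 in WT vehicle (SD). Differences above 0 were found for 6 of 10 genes with vehicle, beside 51.3% of all genes, for 4 of 10 after LPS, beside 49.6%, and for 3 of 10 averaged over treatments, beside 50.8%. Leaving out 1 library moved these counts to 3 to 7, 3 to 6 and 3 to 8 of 10.

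The response to LPS was also compared between genotypes through the interaction, the LPS difference in APP minus that in WT. It was -0.07 ± 0.44 for Nfkbia (SE, 95% interval -0.99 to 0.85), 0.08 ± 0.44 for Nfkbiz (-0.82 to 0.98), -0.12 ± 0.50 for Tnfaip3 (-1.15 to 0.92) and -0.02 ± 0.61 for Nfkb2 (-1.28 to 1.23). By edgeR, 0 of 10 genes were called and 0 had an unadjusted p under 0.05, beside 2.64% of all genes with such a p and 0% called. DESeq2 and voom called 0 of the 10 as well, where DESeq2 called 99 of all genes and voom 0. The interaction was above 0 for 4 of 10, beside 47.0% of all genes, and for 3 to 8 of 10 when 1 library was left out. For Nfkbie, the WT groups were narrowly separated after TMM adjustment and the APP groups were not. Its interaction was -1.61 ± 1.70 (95% interval -5.12 to 1.89, adjusted p = 1.00 by edgeR). It was -3.34 ± 2.33 with library pairs as a block, -3.28 ± 2.55 with replicate numbers as a block and -5.62 ± 1.94 with voom (adjusted p = 0.741), so its size depended on the fit and no fit called it.

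**Figure D4:**
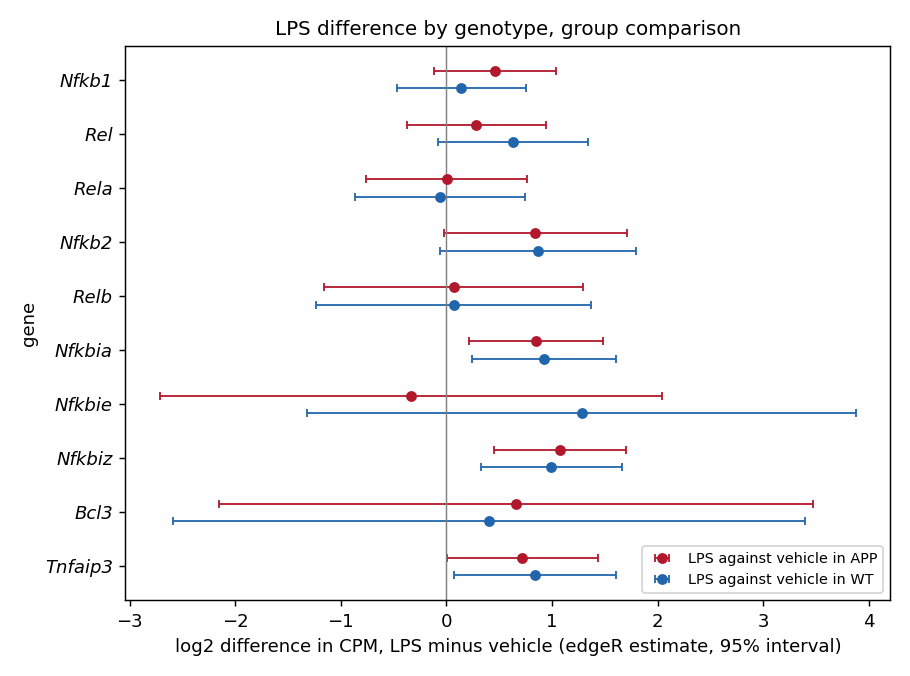
The plot of LPS differences gives the edgeR log2 difference between LPS and vehicle (horizontal axis) for each gene, in APP (red) and in WT (blue), with bars of the 95% interval. The APP and WT estimates lie close together for Nfkbia (0.85 and 0.92), Nfkbiz (1.07 and 0.99) and Nfkb2 (0.84 and 0.87), and the widest bars belong to Nfkbie and Bcl3.

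Genes around the 10 were read from 3 pathway lists, in the LPS difference averaged over genotypes. Of 25 genes of the IKK complex and the kinases and adaptors above it, 16 had a difference above 0, 0 were called and 3 had an unadjusted p under 0.05, with a median of 0.18. Over all genes tested these shares were 47.9% above 0, 0.0142% called and 6.01% under 0.05, with a median of -0.02. The smallest p-values there belonged to Birc3, a ubiquitin ligase of TNF receptor complexes (0.96 ± 0.36, adjusted p = 0.687), Ikbke, the IKK-related kinase IKK-epsilon (0.72 ± 0.33, adjusted p = 0.802), and Malt1, a scaffold and protease that activates IKK (0.81 ± 0.39, adjusted p = 0.830). Birc3 averaged 68.6 ± 15.5 CPM in APP LPS, 32.6 ± 26.5 in APP vehicle, 63.5 ± 14.5 in WT LPS and 35.3 ± 23.8 in WT vehicle (SD). Of 23 other inhibitors and deubiquitinases, 14 were above 0, 0 were called and 4 had an unadjusted p under 0.05, with a median of 0.06. They were led by Tnip1, a partner of A20 (0.77 ± 0.25, adjusted p = 0.543), Trim30a (0.68 ± 0.25, adjusted p = 0.667) and N4bp1 (0.51 ± 0.19, adjusted p = 0.667). Tnip1 averaged 43.7 ± 19.9 CPM in APP LPS, 28.9 ± 4.05 in APP vehicle, 48.4 ± 17.9 in WT LPS and 25.2 ± 12.6 in WT vehicle (SD).

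Textbook NF-kB target genes outside the 10 formed the third list, of 40. After LPS 35 of them had a mean difference above 0, 1 was called higher and 0 lower by edgeR, and 18 higher and 1 lower had an unadjusted p under 0.05. Their median log2 difference was 0.75, beside -0.02 for all genes, of which 47.9% were above 0, 0.0142% called and 6.01% under 0.05. With library pairs as a block in the 19-library fit, 10 of the 40 were called higher and 0 lower, beside 71 higher and 99 lower of all genes. In APP alone 5 were called higher, beside 24 of all genes, and in WT alone 6, beside 13 of all genes. Not all WT pairs met the check used for pairing. The gene called in the group comparison was Tnf, the cytokine tumour necrosis factor, which rose by 1.56 ± 0.24 (log2, SE, adjusted p = 0.0116), and whose adjusted p was 0.0586 without WT vehicle replicate 2. It averaged 82.7 ± 36.7 CPM in APP LPS, 29.5 ± 12.7 in APP vehicle, 78.7 ± 16.1 in WT LPS and 25.3 ± 7.56 in WT vehicle (SD). Between APP and WT, averaged over treatments, 21 of the 40 were above 0, beside 50.8% of all genes, and 0 were called or had an unadjusted p under 0.05, beside 3.34% of all genes under 0.05.

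The genes whose levels ran most like those of the 10 over the 19 libraries were taken by Pearson correlation of log2 CPM, among genes tested with a mean of at least 10 CPM. The libraries share treatment, depth and culture, so these values describe likeness and are given without a test. Nfkbia ran closest to Socs1 (r = 0.93), a feedback inhibitor of cytokine receptor signalling, then Acod1 (r = 0.88), the enzyme that makes itaconate, and Clec4e (r = 0.87), a receptor for microbial glycolipids. For Socs1 Spearman's rho was 0.92, and r was 0.89 without the 2 libraries farthest from the median of Socs1. Nfkbiz ran closest to Helz2 (r = 0.93), the chemokine gene Ccl3 (r = 0.90) and the TNF receptor gene Tnfrsf1b (r = 0.87). Nfkb2 ran closest to the chemokine gene Ccl7 (r = 0.91, and 0.81 without the 2 libraries farthest from the median of Ccl7), then Esd (r = 0.87) and Mmadhc (r = 0.85). For Nfkb1 Ccl7 (r = 0.804) came just before Rps3 (r = 0.796). Tnfaip3 ran closest to Car13 (r = 0.90), a carbonic anhydrase, then the cytokine gene Lif (r = 0.87) and Upp1 (r = 0.86). First for the other genes were Gng12 for Rel (r = 0.76), Adarb1 for Rela (r = 0.85), Dlst for Relb (r = 0.86), Coasy for Nfkbie (r = 0.90) and Xbp1 for Bcl3 (r = 0.87).

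Among the 10 genes themselves, Nfkbia and Nfkbiz had r = 0.76 over the 19 libraries and 0.51 once the group means were removed. Nfkb1 and Nfkb2 had 0.73 and 0.69 on the same measures, and Nfkb1 and Tnfaip3 had 0.70 and 0.67, so removing the group means took less from these than from Nfkbia and Nfkbiz. Rela ran with Bcl3 (0.67, and 0.68 with group means removed), both of which were spread more within groups than between them. Bcl3 was at 0 counts in APP LPS replicate 1, APP vehicle replicate 3 and WT LPS replicate 4. Rela stood at 11.7, 24.6 and 17.6 CPM in these libraries. No rank correlation was taken for this pair, so how far its r rests on the libraries at 0 was not tested.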

How the data were processed

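Polyadenylated RNA was measured in 19 samples of cultured microglia with 3′-end sequencing (100-base single-end reads, RNA integrity above 8.5, with molecular identifiers and ERCC spike-ins, per the labels' protocols). Per the submitters' processing notes, FastQC, Trimmomatic, kallisto and DESeq2 were used. No version, genome build or annotation, and no word on collapsing reads that share an identifier, stands in the sources used here. The deposited values are the authors' estimated counts (expected counts) from kallisto, by gene symbol. They were already whole, so rounding changed 0 values, and 0 rows were ERCC transcripts. Summed over the libraries, every gene had at least 10 counts.

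Groups and replicate numbers came from the titles and library numbers from the descriptions. WT LPS replicate 1 is numbered 5 in its label and 6 in its file header, and had no partner. No 2 libraries of a group were copies: chi-square per degree of freedom was 82.8 or more in all 36 pairings. Counts were fitted with edgeR 4.0.16 (R 4.3.3, limma 3.58.1) by the quasi-likelihood F test with robust estimation and TMM factors, with 1 coefficient per group over the 19 libraries. Low counts were filtered by filterByExpr, with 14113 genes tested and 2828 not. Benjamini-Hochberg adjustment ran over all genes tested, and a call is an adjusted p under 0.05. The scripts were tested on simulated data. The pathway lists named the genes given by a rule: those called, or else the 3 with the smallest p for the mean LPS difference. Log2 CPM for correlations used a prior count of 2.

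Replicate numbers were taken to pair libraries where every pair's deviations from the group means correlated above 0.1. APP pairs met this (0.130, 0.164, 0.150, 0.166 and 0.352 for replicates 1 to 5). WT replicate numbers (-0.09 to 0.07) did not, nor did all WT pairs of consecutive numbers (0.0959 to 0.292). Floors of 3 counts and the depth cover counting error only. The 10 genes, the lists and the tests were chosen with earlier results of these data known. Alternatives were a block for pairs or replicate numbers, DESeq2 1.42.0, limma voom, other scalings and filters, and leaving out libraries. After seeing the data, fits without robust estimation, with the library number as a term and without each APP pair were added.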

Additional observations from a re-analysis of the deposited data

Results flagged for a closer look

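In 40 sets made of a gene and a group, 2 libraries stood apart from the others of their group by the gap to the nearest library, and chance alone flags about 1 in 20 such sets. Nfkb2 stood at 15.1 CPM in WT LPS replicate 4, against 35.6 to 41.7 CPM in the other 4 WT LPS libraries. Relb stood at 3.29 CPM in WT vehicle replicate 3, against 32.2 to 34.8 CPM in the other 3 WT vehicle libraries. These libraries carry the consecutive numbers 42 and 41.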

How the results depend on the processing

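Genes called over the whole table depended most on the fit. With a replicate block by label number, edgeR called 11 genes for the LPS difference averaged over genotypes, against 2 without it, Nfkbia among them (0.88, adjusted p = 0.00909). With library pairs as a block over all 19 libraries it called 62 in APP, 19 in WT and 170 on average (83, 21 and 211 without robust estimation), and 53 with the 10 APP libraries alone. In that 19-library pairing Nfkbia was called in APP (adjusted p = 0.00194), in WT (1.09 ± 0.15, adjusted p = 0.00281) and on average (1.01 ± 0.10, adjusted p = 1.40e-05), and Nfkbiz in APP (0.0196) and on average (7.51e-04) but not in WT (0.119). Of the WT pairs of consecutive numbers, 41 and 42 (correlation 0.0959) fell below the limit of 0.1 used for pairing, and the others lay at 0.120 to 0.292. In every WT pair the partner correlated more than any other WT LPS library. DESeq2 called 76 in APP, 89 in WT, 178 on average, 64 for APP against WT with vehicle, 69 after LPS, 107 over treatments and 99 for the interaction, where edgeR called 0, 0, 2, 0, 0, 0 and 0. The voom test called 9 in APP, 3 in WT and 68 on average. Scaling by library totals gave 1 on average. Without the libraries numbered 57 to 60, 2 were called in APP, 24 on average, 1 for APP against WT after LPS and 1 over treatments. The library number as a term gave 13 on average, Nfkbia among them. Leaving out each library in turn from the group fit gave 0 to 10 on average and 0 in APP. Leaving out each pair from the block fit of the 10 APP libraries gave 10 to 87 in APP. The cause of these changes was not tested.

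Among the 10 genes, no call of the group comparison was lost, as none was made, and the changes of sign fell on values smaller than their standard errors. For Rela after LPS in APP the value was -0.086 in every block, -0.15 with voom, -0.015 with library totals, -0.0074 without a filter, -0.27 without the libraries numbered 57 to 60 and -0.047 with the library number. For Bcl3 in WT it was -0.54 with the label block, -0.58 with the pair block and -0.66 with voom, and on average -0.064, -0.088 and -0.32. The interaction of Nfkb2 was 0.10 and 0.11 with these blocks, 6.0e-04 with DESeq2 and 7.0e-04 with its size factors in edgeR, and that of Nfkbia was 0.11 with the label block. APP against WT for Nfkbia was 0.10 without the libraries numbered 57 to 60 and 0.017 with the library number.

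Leaving out 1 library in turn from the group fit gave -0.20 to 0.98 for Bcl3 and -0.37 to 0.19 for Rela after LPS in APP. For Relb it gave -0.20 to 0.33 and for Nfkbie -0.71 to 0.14. The pair block fit of the 10 APP libraries, without each pair, gave -0.62 to 1.44 for Bcl3 and -0.29 to 0.19 for Rela. It gave -0.31 to 0.55 for Relb and -2.88 to -0.54 for Nfkbie, which stood at -1.64 with all pairs. Leaving out 1 library from the group fit gave -0.20 to 0.095 for Rela and -0.30 to 0.26 for Relb in WT. Averaged over genotypes these ranges were -0.22 to 0.060 and -0.12 to 0.20. APP against WT ranged from -0.13 to 0.10 for Nfkbia, -0.011 to 0.22 for Nfkbiz and -0.19 to 0.094 for Tnfaip3. The interaction ranged from -0.44 to 0.18 for Nfkb2, -0.32 to 0.15 for Nfkbia, -0.20 to 0.25 for Nfkbiz and -0.42 to 0.15 for Tnfaip3. The LPS difference averaged over genotypes kept its sign for Nfkbia (0.80 to 1.01), Nfkbiz (0.89 to 1.13), Nfkb2 (0.73 to 1.06) and Tnfaip3 (0.66 to 0.93) in all 19 of these fits. Nfkbie and Bcl3 had libraries at 0 counts, and their standard errors were the largest of the 10 genes.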
